A study of Mus musculus with 7 samples.

Results

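The uterus 12 h after dihydrotestosterone (DHT) was compared with the uterus 6 h after it, 1 array of pooled RNA on each side, so 2 of the 7 arrays of the series carry the contrast. The members are the array titled 12 h and the array titled 6 h, and the measure is the log2 ratio of the 12 h signal to the 6 h signal. Of 12422 probe sets other than the maker's controls, 7723 gave a signal above a floor on at least 1 of both arrays and were counted. The floor was the 40th percentile of all values, a signal of 145.9, and lower signals were raised to it. A gene was represented by its brightest counted probe set, which gave 5892 genes. Both pools came from uteri of C57BL/6 females, 10 to 11 weeks old, whose ovaries had been removed 7 days before death and which received 0.1 mg DHT per mouse under the skin. The other arrays are vehicle, taken 24 h after its injection, and DHT at 1, 3, 18 and 24 h, in mice of the same strain, age and surgery. No vehicle pool of 6 h or 12 h is analysed here, so that time since DHT, time since the injection and the hour of the day cannot be told apart. With 1 pool at each time there is no replicate error, no test was made, and every ratio describes 2 pools. The number of uteri in a pool is unclear, since the protocol names 10 mice without saying whether that is per group. In whole uterus, fewer cells of a type and less RNA per cell cannot be told apart.

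DHT is the most potent natural ligand of the androgen receptor, a nuclear receptor that binds DNA and switches target genes on and off, and aromatase cannot turn it into estrogen. Removal of the ovaries leaves the uterus without their steroids, and its epithelium, stroma and smooth muscle shrink and stop dividing. Cells that re-enter the cycle first make the enzymes that supply and copy DNA, which belong to S phase, and then the kinases, motor proteins and scaffolds of mitosis and cytokinesis.

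From 6 h to 12 h, genes of DNA replication, mitosis, keratin formation and cholesterol synthesis stood higher. The list medians of circadian clock and macrophage genes stood lower, as did single patterning genes such as Wnt4 and Gli2. Among probe sets, 37 were at least 2-fold higher at 12 h (0.479% of those counted) and 26 at least 2-fold lower (0.337%). At 1.5-fold the counts were 290 higher (3.76%) and 200 lower (2.59%). The floor sets these numbers: with it at the 20th percentile 240 and 201 probe sets passed 2-fold, and with it at the 60th, 13 and 6. Among genes, 28 were at least 2-fold higher (0.475%) and 18 at least 2-fold lower (0.305%), and 215 (3.65%) and 155 (2.63%) passed 1.5-fold. A 2-fold difference needs a signal of at least 291.8 on one side, and 8 of the 37 higher and 8 of the 26 lower probe sets lay at the floor on the other. For these the ratio is to the floor. The plot of signals on both arrays shows the called genes against all others.

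**Figure D1:**
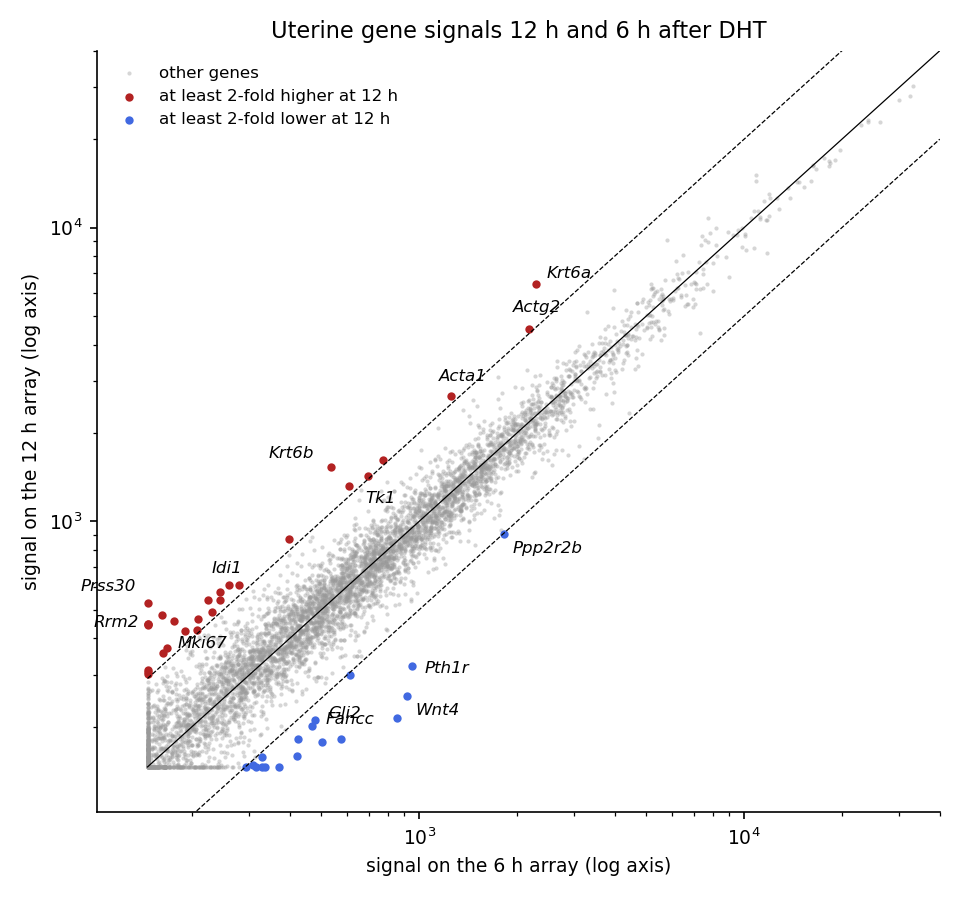
Signal of each of 5892 genes on the 12 h array against the 6 h array, both on log axes, with signals under the floor of 145.9 set at it. The solid line marks equal signals and the dashed lines 2-fold differences, with 28 genes at least 2-fold higher at 12 h in red and 18 at least 2-fold lower in blue, and Krt6a is the brightest of the red points.

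Genes of mitosis and cytokinesis stood higher at 12 h as a group. Of 33 measured genes, 32 had a ratio above 0, 16 were at least 1.5-fold higher and none was 1.5-fold lower. Of all genes 3.65% were 1.5-fold higher and 2.63% lower, the background for the count of every other list. The median log2 ratio of the list was 0.55, beside 0.0041 over all genes. Mki67, which coats chromosomes in dividing cells, had a signal of 259 on the vehicle array and of 279.5, 375, 209, 466, 684 and 605 at 1, 3, 6, 12, 18 and 24 h of DHT. The 7 values of other genes are given in the same order, vehicle first and then the 6 DHT times. The 6 h value of Mki67 was the lowest of the 7 and the 12 h value exceeded all earlier ones, a ratio of 2.23. Nusap1, a spindle protein, gave 242 on vehicle and 282, 133, 190.1, 423, 479.5 and 391 over the same 6 DHT times. Birc5 encodes survivin, a subunit of the chromosomal passenger complex. It stood at 192 on vehicle and at 172, 192, 208, 426, 619 and 495 after DHT, so that 12, 18 and 24 h lay above all 4 other arrays. Kif23, a motor of the midzone of the dividing cell, gave 375 and 389, 400.4, 278, 607, 676 and 376, high at 12 and 18 h and back at the vehicle level at 24 h.

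Other parts of the mitotic apparatus showed the same order. Aurkb, the kinase of the passenger complex, gave 192 at 6 h and 365 at 12 h (log2 ratio 0.93). Incenp, the scaffold that activates it, gave 336 on vehicle and 326, 341, 197, 359.7, 427.5 and 374 after DHT. Its ratio (0.87) rests on a low 6 h value, with 12 h little above vehicle, and its other probe set gave 0.31. Kif22, a chromosome motor, went from 662 to 1279 and Anln, a protein of the contractile ring, from 218 to 412. Top2a, the topoisomerase that untangles chromosomes, had 221 at 6 h and 402 at 12 h. Cyclin B2 was brighter and moved less, with Ccnb2 at 1119 and 1632 and its highest value, 3095, at 18 h. Pttg1, which encodes securin, was the only measured member below 0, with 1212 at 6 h and 1043 at 12 h. The 4 list genes with a further counted probe set all kept the sign there, although the other Mki67 probe set gave a log2 ratio of only 0.12. That probe set gave 294.5 on vehicle and 197, 227, 188, 204.5, 177 and 141 after DHT, highest on vehicle and lowest at 18 and 24 h.

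The promoters of the list shared letters that the contrast did not use. Promoter sequences came from RefSeq on build GRCm38.p6, from 250 bases before to 50 after each gene's start, and 26 of the 33 mitosis genes matched by symbol. The cell cycle homology letters TTTGAA or TTCGAA, on either strand, were in 20 of these 26 (76.9%), against 14.0% of 4744 measured genes and 19.4% of 27025 promoters. The CCAAT box, CCAAT on either strand, was likewise in 20 of 26 (76.9%), against 38.2% and 37.9%. These letters are known from genes expressed at the end of the cell cycle, so the shares describe the list and not the step. The promoters of Mki67, chr7:135716330-135716629 (minus strand), and Kif23, chr9:61946750-61947049 (minus strand), are shown because they hold both motifs and belong to the list genes with the highest ratios. They are written 5′ to 3′ on the gene's strand, with capitals for CCAAT, its complement and TTTGAA.
Mki67: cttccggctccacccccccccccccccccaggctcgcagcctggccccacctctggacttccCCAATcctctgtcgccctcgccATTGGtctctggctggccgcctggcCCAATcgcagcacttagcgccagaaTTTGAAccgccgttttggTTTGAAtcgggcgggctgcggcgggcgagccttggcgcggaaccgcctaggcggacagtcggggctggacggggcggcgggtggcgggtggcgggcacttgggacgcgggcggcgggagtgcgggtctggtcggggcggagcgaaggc
Kif23: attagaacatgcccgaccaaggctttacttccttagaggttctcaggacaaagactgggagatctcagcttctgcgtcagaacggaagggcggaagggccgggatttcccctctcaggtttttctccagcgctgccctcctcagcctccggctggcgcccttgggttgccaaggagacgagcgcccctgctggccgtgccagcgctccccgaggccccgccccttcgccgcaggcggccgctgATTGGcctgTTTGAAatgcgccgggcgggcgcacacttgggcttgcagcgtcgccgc
In Mki67 the letters TTTGAA began 116 and 98 bases before the start, downstream of 3 CCAAT boxes. Kif23 has 1 CCAAT box that begins 7 bases before the start and TTTGAA just past the start.

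Genes that supply and copy DNA were also higher at 12 h. The list of DNA replication and nucleotide synthesis had 33 measured genes, of which 32 had a ratio above 0, 12 were at least 1.5-fold higher and none was 1.5-fold lower, with a median log2 ratio of 0.41. Rrm2, the subunit of ribonucleotide reductase that cells make for S phase, gave 139 on vehicle and 145, 152, 136, 444, 253 and 199 over the DHT times. It lay near the floor up to 6 h and was highest at 12 h, 3.04 times the floor. Tk1, the thymidine kinase of dividing cells, gave 865 on vehicle and 828, 628, 609, 1321, 1230.5 and 1106 after DHT. Its 12, 18 and 24 h values all lay above the other 4. Uhrf1, which carries DNA methylation through replication, gave 453 and 575, 406, 467, 885, 647 and 602, again highest at 12 h. Rpa3, a subunit of the single-strand binding protein, had 249 at 6 h and 455 at 12 h. Chaf1a, which loads histones behind the fork, had 168 at 6 h and 283 at 12 h.

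Mcm5, Mcm3, Pola1 and Pcna had log2 ratios of 0.60, 0.59, 0.72 and 0.46, below those of the genes just named but above the list median of 0.41. Of other helicase and polymerase subunits, Mcm2 (0.29), Mcm7 (0.28), Pola2 (0.20) and Pold2 (0.12) lay below that median and Pold1 (0.44) above it. Mcm5, a subunit of the replicative helicase, gave 1286 and 1276, 1538, 1801, 2732, 2089 and 1266, already above vehicle at 6 h and highest at 12 h with a ratio of 1.52. Mcm3 of the same ring had 800.4 at 6 h and 1208 at 12 h, while its other probe set had a log2 ratio of 0.28. Pola1, the catalytic subunit of the polymerase that starts each strand, had 227 at 6 h and 373 at 12 h. Pcna, the sliding clamp, gave 1147 and 744, 847, 1588, 2192, 1669 and 962, already above vehicle at 6 h, and its 12 h value was 1.38 times that at 6 h. Ung, a glycosylase that removes uracil, was the only measured member below 0, at -0.05. Of 6 list genes with a further counted probe set, 3 had the same sign there.

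Letters of the E2F type, bound by the factors that drive S phase genes, were in 8 of 30 matched replication promoters (26.7%), against 4.34% of measured genes and 2.32% of all promoters. The letters searched on both strands were TTTGGCGC, TTTCCCGC, TTTGCCGC and TTTCGCGC. They were in none of the 26 mitosis promoters. CCAAT was in 19 of 30 (63.3%). The promoters of Pola1, chrX:93632106-93632405 (minus strand), and Mcm5, chr8:75109259-75109558 (plus strand), are shown as the E2F-bearing list promoters with the highest ratios, with capitals for the E2F letters, CCAAT and their complements.
Pola1: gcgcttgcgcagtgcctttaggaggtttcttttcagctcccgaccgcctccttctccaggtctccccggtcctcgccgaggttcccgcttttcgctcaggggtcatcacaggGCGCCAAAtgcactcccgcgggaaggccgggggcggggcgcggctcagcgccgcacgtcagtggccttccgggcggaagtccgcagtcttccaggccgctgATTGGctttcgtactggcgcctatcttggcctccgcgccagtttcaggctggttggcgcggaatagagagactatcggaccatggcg
Mcm5: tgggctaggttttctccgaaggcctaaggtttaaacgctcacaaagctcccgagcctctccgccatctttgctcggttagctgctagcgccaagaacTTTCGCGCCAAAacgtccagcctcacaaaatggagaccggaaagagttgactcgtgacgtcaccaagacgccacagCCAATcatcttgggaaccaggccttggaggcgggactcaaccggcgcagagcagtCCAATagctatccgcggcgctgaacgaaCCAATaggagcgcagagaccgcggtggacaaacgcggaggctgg
The capital run in Mcm5 is an overlap of TTTCGCGC with the complement of TTTGGCGC, and begins 153 bases before the start.

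Cyclins, kinases and inhibitors of G1 and S phase were mixed. Of 21 measured genes 12 had a ratio above 0, 2 were at least 1.5-fold higher and 1 lower, and the median log2 ratio was 0.021. Rbl1, a pocket protein that holds E2F factors, had 164 at 6 h and 285 at 12 h, and Cdk1, the kinase of mitotic entry, had 629.5 at 6 h and 974 at 12 h. Cdkn1c, an inhibitor of cyclin-dependent kinases, gave 1559 on vehicle and 1328, 1245, 1416, 856, 775 and 981 after DHT. Its values at 12, 18 and 24 h lay below those on the other 4 arrays. The 3 cell cycle lists together hold 87 measured genes, 30 of them at least 1.5-fold higher at 12 h and 1 lower.

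The 4 DHT arrays that the contrast does not use, 1, 3, 18 and 24 h, were compared among themselves. A gene was counted where both its 18 h and 24 h signals lay above both its 1 h and 3 h signals, which holds for 22.1% of all genes, or below both, which holds for 19.6%. Of the mitosis genes 28 of 33 (84.8%) lay above and 1 below, and of the replication genes 13 of 33 (39.4%) lay above and 2 below. Ranks and medians over all 7 arrays include the 6 h and 12 h arrays that form the contrast, and describe it only. The 18 h array was the highest of the 7 for 25 of the 33 mitosis genes (75.8%, against 11.5% of all genes). The 12 h array was the highest for 24 of the 33 replication genes (72.7%, against 16.7%). Centred on each gene's mean, the replication median was -0.06, 0.42, 0.14 and -0.08 at 6, 12, 18 and 24 h. The mitosis median was -0.32, 0.28, 0.67 and 0.42 at the same times. Over all genes past 1.5-fold, 92 of the 215 higher ones (42.8%) lay above at 18 and 24 h and 19 below, and 64 of the 155 lower ones (41.3%) lay below and 11 above. These arrays share the tissue and platform but no RNA with the contrast, as far as the labels say. The plot of list medians over the arrays shows the 12 h and 18 h maxima.

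**Figure D2:**
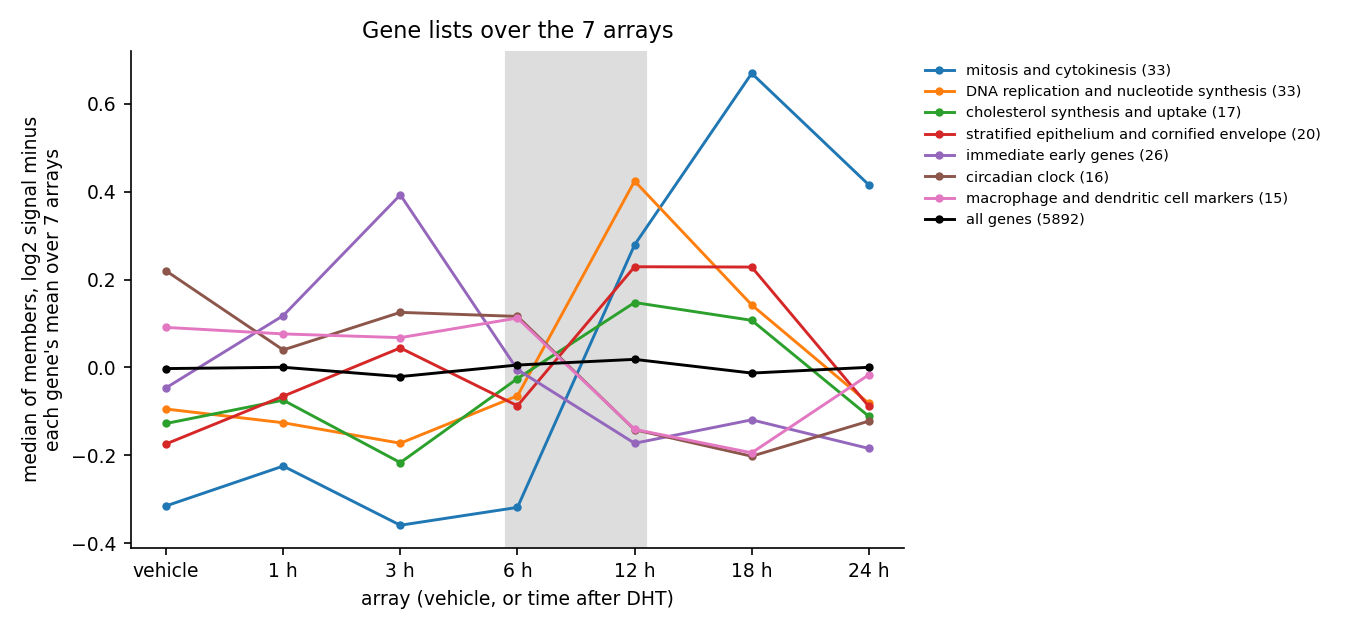
Median over the members of each list of the log2 signal minus each gene's mean over the 7 arrays, with the number of measured genes in brackets and the 6 h to 12 h step shaded. The replication list is highest at 12 h (0.42), the mitosis list at 18 h (0.67) and the immediate early list at 3 h (0.39), and each point is a single array.

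Keratins and cornified envelope genes of stratified epithelium were the next list by its median, 0.33. Of 20 measured genes, 15 had a ratio above 0, 7 were at least 1.5-fold higher, 4 of them 2-fold, and 1 was 1.5-fold lower. Krt6a, a keratin of rapidly dividing or wounded epithelium, gave 896 on vehicle and 1165, 2113, 2284, 6404, 2469.5 and 1073 after DHT. The 12 h value was 2.8 times that at 6 h and stood well above the next highest, that at 18 h. A further Krt6a probe set went from 1120.3 to 3392, a log2 ratio of 1.60. Krt6b gave 641 and 530.1, 545, 535, 1537, 700.5 and 519, high on the 12 h array alone. Both keratins are near-identical in sequence, so their probe sets may share signal.

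Other members of the list were less sharply confined to 12 h. Krt10, the keratin of cells that leave the basal layer, gave 207 and 202, 174, 163, 356, 270.5 and 206. Sprr1a, a cross-linked envelope protein, gave 623 and 755, 706, 697, 1423, 1377 and 1208, so that 12, 18 and 24 h all lay above the other arrays. Krt13, a keratin of stratified epithelium that does not cornify, had 1511 at 6 h and 2467 at 12 h, and its other probe set had a log2 ratio of 0.69. Also past 1.5-fold were Sprr2b, with 765 at 6 h and 1264 at 12 h, and the desmosomal cadherin Dsc2, with 168 at 6 h and 264 at 12 h. Krt17 was the lower one, with 447 at 6 h and 268 at 12 h, but its other probe set went the other way, from 251 to 401. The basal keratins Krt5 and Krt14 and the envelope protein Ivl lay under the floor on all 7 arrays, with a highest value of 94.4. Trp63, the factor of basal cells, gave 252 at 6 h and 319 at 12 h. The simple-epithelium keratins Krt8 and Krt18 went from 2201 to 2423 and from 1263 to 1589, and the summed signal of 17 uterine epithelium markers was 22714 and 23671. Whether another epithelium contributed to the pools was not tested.

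Cholesterol synthesis genes were higher at 12 h, with Idi1 in front. Of 17 measured genes, 14 had a ratio above 0, 4 were at least 1.5-fold higher and none was lower by that much, with a median log2 ratio of 0.25. Idi1, which isomerises the isoprenoid unit, gave 83.9 on vehicle and 155, 174, 244, 576, 391 and 203 after DHT, highest at 12 h and lower again at 24 h. Msmo1, a sterol demethylase, gave 159 and 108, 117, 174, 318, 236 and 152. Fdps, which builds farnesyl diphosphate, had 695 at 6 h and 1082 at 12 h and a log2 ratio of 0.82 on its other probe set. Cyp51, which demethylates lanosterol, had 178 at 6 h and 269.5 at 12 h, and Sqle, the epoxidase ahead of it, had 525 at 6 h and 768 at 12 h. Fatty acid enzymes of the list had ratios near or below 0, Fasn at -0.37, Scd1 at -0.16 and Acly at 0.05. The adipocyte markers, of which fatty acid enzymes are characteristic, had a summed signal over 10 genes of 10955.5 at 6 h and 9036 at 12 h, with 8 of 10 ratios below 0, and Adipoq itself gave 1892 and 1721. Their part in the fatty acid values was not tested.

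CCAAT was in 11 of 12 matched promoters of the cholesterol list (91.7%). The sterol element TCACCCCAC, searched on both strands, was in 1 of the 12, that of Hmgcs1, and in 0.522% of all promoters. The promoter of Idi1, chr13:8885356-8885655 (plus strand), is shown as that of the list gene with the highest ratio, with capitals for both CCAAT complements, which begin 45 and 14 bases before the start.
Idi1: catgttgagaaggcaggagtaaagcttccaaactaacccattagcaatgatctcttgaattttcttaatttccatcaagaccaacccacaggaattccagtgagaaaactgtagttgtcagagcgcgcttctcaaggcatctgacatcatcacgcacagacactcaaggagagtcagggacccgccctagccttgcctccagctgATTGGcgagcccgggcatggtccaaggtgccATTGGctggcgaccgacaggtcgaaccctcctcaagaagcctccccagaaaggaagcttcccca
The letters AGAACA, which the androgen receptor can bind, were in 10.2% of the promoters of genes at least 1.5-fold higher, in 8.06% of those of genes 1.5-fold lower and in 12.0% of those of measured genes.

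The actin genes Actg2, Acta1 and Actc1 stood higher at 12 h, and matrix genes lay on both sides. Beta actin hardly moved between both arrays, with log2 ratios of 0.02 and -0.08 on its counted probe sets. On these arrays its probe sets gave 912 to 993, against 2130 or more on every other array. Actg2, the smooth muscle gamma actin, gave 2371 on vehicle and 1745, 1669, 2182, 4533, 6075 and 6895 after DHT, so that 12, 18 and 24 h lay above all other arrays. Acta1, the skeletal alpha actin, gave 371 and 359, 306, 1257, 2682, 3060.3 and 2560.0, with its first large difference from vehicle at 6 h and a further 2.13-fold by 12 h. Actc1, the cardiac alpha actin, had 1469 at 6 h and 2587 at 12 h. Actins are near-identical in sequence and the Actg2 probe set is of the type that can detect a family, so the isoforms are uncertain. The smooth muscle list as a whole had a median log2 ratio of 0.12, with 1 of 20 members at least 1.5-fold higher, near the background share, and none lower by that much. The list of skeletal and cardiac type muscle had a median of 0.16, with 3 of 11 members higher and none lower by that much. In the fibrillar matrix list 4 of 34 members were at least 1.5-fold higher and 3 lower, with a median of 0.056. Col3a1, a fibrillar collagen, gave 4089 and 5126, 4582, 5786, 9104, 9173 and 10513, and its next brightest probe set had a log2 ratio of 0.75. Col5a2 went from 1753 to 3095, the proteoglycan Vcan from 437 to 777 and the collagen-binding Sparc from 2148 to 3274. Eln, which encodes elastin, was lower, with 2752 at 6 h and 1754 at 12 h, as were Tnxb, a tenascin, with 1199.8 at 6 h and 714 at 12 h, and Thbs2, a matrix protein that restrains vessel growth, with 482 at 6 h and 287 at 12 h.

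**Figure D3:**
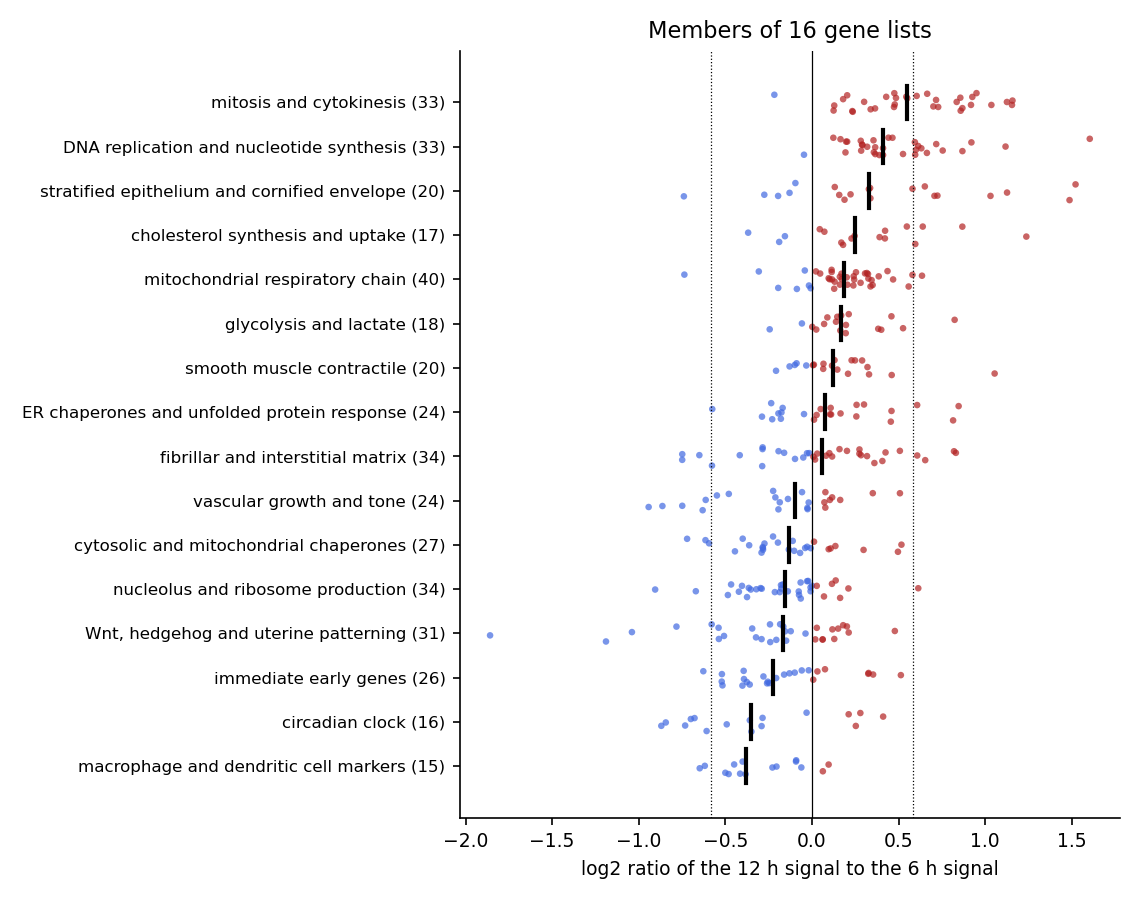
Log2 ratio of the 12 h signal to the 6 h signal for every measured member of 16 lists, red above 0 and blue below, with the number of genes in brackets, a black bar at the list's median and dotted lines at 1.5-fold. Nearly all mitosis and replication genes lie right of 0, and the macrophage, clock and immediate early lists have medians of -0.38, -0.35 and -0.23.

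Signals and factors that pattern the uterus were lower at 12 h for a few strong members. Of 31 measured genes of Wnt, hedgehog and uterine patterning, 4 were at least 1.5-fold lower, 3 of them 2-fold, and none was higher by that much. The median was -0.17 and 20 of 31 lay below 0. Wnt4, a Wnt ligand, gave 296 on vehicle and 359, 1089, 921, 254, 135 and 60.4 after DHT. It was high on the 3 h and 6 h arrays, back near vehicle at 12 h, 3.63 times lower than at 6 h, and under the floor at 18 and 24 h. Gli2, a hedgehog effector, gave 274 and 326, 349.7, 479.5, 210.3, 240.3 and 259.7, highest at 6 h and lowest at 12 h. Sfrp4, a secreted Wnt antagonist, gave 567 and 435, 352, 615, 299, 247 and 387. Msx1, a homeobox factor of the uterine epithelium, gave 2972 and 2630.4, 3280.3, 3099, 1802, 1987 and 2453, with 12, 18 and 24 h below the other 4 arrays. Across the list 9 genes lay lower at 18 and 24 h than at 1 and 3 h and 6 lay higher.

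Receptors, binding proteins and vessel genes followed. Pth1r, the receptor for parathyroid hormone and its related peptide, gave 316 on vehicle and 411, 679.8, 948, 321, 278 and 332, highest at 6 h and near vehicle from 12 h on. Igfbp3, a binding protein for insulin-like growth factors, gave 4755 and 5207, 3954, 3208, 1625, 1292 and 3067, and its other probe set went from 1459 to 988. Plet1, a surface protein of progenitor epithelia, gave 2663 and 3589, 7139.6, 4439, 2339, 2215 and 2439.5, with its peak at 3 h. Id3, a target of BMP signals, gave 1632 and 1327, 2182, 1772, 1091, 1049 and 1241. In the vascular list 5 of 24 genes were at least 1.5-fold lower and none higher, with a median of -0.098. Vegfa, the main growth factor of endothelium, gave 200.2 and 372, 618, 513, 282, 215 and 269. Ece1, which activates endothelin, had 1790.2 at 6 h and 931 at 12 h, and the adrenomedullin receptor partners Ramp2 and Ramp3 went from 2593 to 1695 and from 791 to 511. The 12 endothelium markers had a summed signal of 13049 at 6 h and 10526 at 12 h, the highest and the lowest of the 7 arrays, and 8 of 12 had a ratio below 0. Their part in the vascular values was not tested.

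**Figure D4:**
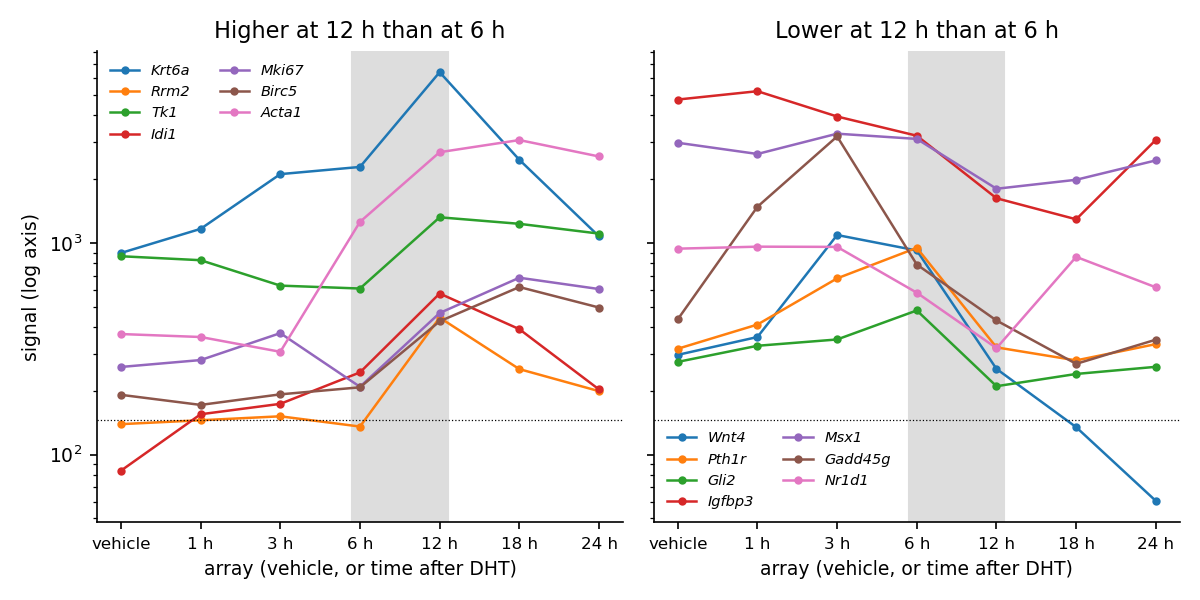
Signal on a log axis of 7 genes that were higher at 12 h than at 6 h (left) and 7 that were lower (right) on each of the 7 arrays, 1 pool each, with the step shaded and the floor of 145.9 dotted. Rrm2 leaves the floor between 6 h and 12 h, and Wnt4 goes from 921 to 254.

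Early response genes were lower at 12 h than at 6 h, mostly by small amounts. Of 26 immediate early genes, 19 had a ratio below 0 and 1 passed 1.5-fold, near the background share, with a median log2 ratio of -0.23, and 15 of the 26 (57.7%) were highest at 3 h, against 14.7% of all genes. The one past 1.5-fold, Ier3, gave 913 and 1431, 2856, 957, 619.5, 674 and 844. Gadd45g, a DNA damage and growth arrest gene in the title of the series, gave 435 on vehicle and 1481, 3183, 790.1, 429.9, 268 and 349 after DHT, so that it was well below its 3 h peak at 6 h and at the vehicle level at 12 h. Gadd45a went from 409 to 337, and Gadd45b from 201 to 133, the second value under the floor. Atm, the kinase that signals DNA breaks, had 688 at 6 h and 583 at 12 h, a log2 ratio of -0.24. Among 37 genes of DNA damage and p53 signalling, 1 was at least 1.5-fold higher, the mismatch repair gene Msh6, and 1 lower, Gadd45g, both near the background shares, and the median was 0.039.

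Chaperone and ribosome production genes were often highest at 6 h, although their few further probe sets mostly had the opposite sign. The list of cytosolic and mitochondrial chaperones had a median of -0.13, with 20 of 27 genes below 0, 3 at least 1.5-fold lower and none higher, and 13 (48.1%) were highest at 6 h. Of 5 members with a further counted probe set 1 kept the sign there, and the median of these probe sets was 0.09. The 3 lower genes belong to the heat shock response. Hspa1b gave 926 and 1222, 1634, 2566, 1557, 1202 and 1260.1, highest at 6 h, Hspa1a had 1743 at 6 h and 1138 at 12 h and Hsph1 had 2637 at 6 h and 1747 at 12 h. Hspa1a and Hspa1b are near-identical copies, so their probe sets may share signal. Of 34 genes of the nucleolus and ribosome production, 27 had a ratio below 0, with a median of -0.15, and 22 (64.7%) were highest at 6 h, against 15.2% of all genes. Of 3 members with a further probe set 1 kept the sign, and all 3 of these probe sets lay above 0, with a median of 0.11. Nolc1, a nucleolar phosphoprotein, had 375 at 6 h and 200.4 at 12 h, and Rrs1, an assembly factor of the large subunit, 1067 at 6 h and 671 at 12 h. The one member past 1.5-fold in the other direction, Mybbp1a, had 249 at 6 h and 381 at 12 h. Chaperones of the endoplasmic reticulum were highest at 12 h in 14 of 24 cases (58.3%, against 16.7% of all genes), and 5 of 9 with a further probe set kept the sign. Their median was 0.078, 3 were at least 1.5-fold higher and none lower. These were Ssr1, a subunit of the translocon complex, with 391 at 6 h and 703 at 12 h, and the disulfide isomerases Pdia3, with 1366 at 6 h and 2402 at 12 h, and Pdia4, with 779 at 6 h and 1187 at 12 h.

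Clock genes were lower at 12 h, with a median log2 ratio of -0.35. Of 16 measured genes, 12 had a ratio below 0, 6 were at least 1.5-fold lower and none was higher by that much. Nr1d1, the nuclear receptor that represses the clock's activators, gave 939 on vehicle and 959.7, 957, 582, 318, 859 and 617 after DHT, lowest at 12 h. Tef, a clock output factor, gave 1771 and 1507, 1489.6, 1489.7, 830.0, 1043 and 1784, low at 12 and 18 h and back at vehicle at 24 h. Nr1d2 gave 970.4 and 978, 838, 867, 522, 556 and 1060.4, with the same low pair. Per1, a repressor of the clock that steroid hormones also induce, gave 241 and 397, 339, 476, 293, 242 and 257, highest at 6 h. Per2 had 233 at 6 h and 94.1 at 12 h, the second under the floor, and Bhlhe40 had 689 at 6 h and 452 at 12 h. The activators moved less, Clock at 0.28 and Arntl at -0.29. Lights went on at 07:15 and the hours of injection and death are not given in the sources used here, so hour of day and time of DHT cannot be told apart in these genes.

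The E-box CACGTG, through which Clock and Arntl act, was in 3 of 13 matched clock promoters (23.1%), those of Per1, Cry1 and Tef, against 10.8% of measured genes and 7.24% of all promoters. This motif was added to the search after values had been seen. CCAAT was in 10 of the 13 clock promoters (76.9%), as large a share as in the mitosis list, although the clock list stood lower at 12 h. In the list of nucleolus and ribosome production, also lower, it was in 10 of 29 (34.5%). The promoter of Tef, chr15:81802423-81802722 (plus strand), is shown because Tef has the lowest ratio of these 3 genes, with capitals for CACGTG, which begins 127 bases before the start, and for the complement of CCAAT.
Tef: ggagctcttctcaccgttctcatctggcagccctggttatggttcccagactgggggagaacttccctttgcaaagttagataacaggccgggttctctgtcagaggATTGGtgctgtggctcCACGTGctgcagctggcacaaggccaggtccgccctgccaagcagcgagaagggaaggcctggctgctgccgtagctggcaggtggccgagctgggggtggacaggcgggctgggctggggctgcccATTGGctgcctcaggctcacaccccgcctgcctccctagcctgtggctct

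Macrophage and dendritic cell genes had the lowest median of all lists, -0.38. Of 15 measured genes 13 had a ratio below 0, 2 were at least 1.5-fold lower and none higher. Both belong to MHC class II, which presents antigen. H2-Ab1 gave 1425 on vehicle and 1303, 1211, 1340.0, 855, 809 and 875 after DHT, and H2-Eb1 gave 2183 and 2147, 1940.5, 2249, 1465, 1678 and 1483. For both, 12, 18 and 24 h lay below the other 4 arrays. Their invariant chain, Cd74, went from 5670.1 to 4296. The complement gene C1qa moved little, from 1566 to 1501, as did Cd68, from 476 to 447. Csf1r, among the 2 members above 0, went from 484 to 506, and its other probe set from 165 to 236. The summed signal of the list was 23600.2 at 6 h and 18788.5 at 12 h, and 7 of its 15 genes lay lower at 18 and 24 h than at 1 and 3 h, with none higher.

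Other cell type lists had medians nearer 0 or rested on few genes. The stroma markers had a median of 0.12, with 7 of 13 ratios above 0 and 6 below, and a summed signal of 44524 and 45639 at 6 and 12 h. That sum includes Col3a1, given above among the matrix genes that stood higher. Lymphocyte markers, with 7 measured genes, had sums of 4514 and 4068 but a median of 0.098, with 4 ratios above 0 and 3 below. Markers of neutrophils, eosinophils and mast cells, with 5, had sums of 1523 and 1424 and a median of -0.13, with 2 ratios above 0 and 3 below. Csf3r, the receptor that neutrophils carry for their growth factor, gave 1357 and 1196, 1311, 774, 1618, 1286 and 1429, lowest at 6 h and highest at 12 h. Further Csf3r probe sets lay under the floor on all 7 arrays. Of the ciliated oviduct markers 3 were measured, with Foxj1 at 391 and 358.

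Most genes of energy metabolism were slightly higher at 12 h. Of 40 subunits of the mitochondrial respiratory chain, 33 had a ratio above 0, with a median of 0.19, although 1 was at least 1.5-fold higher and 1 lower. The lower one, Cyc1, had 7317 at 6 h and 4392 at 12 h, while its other probe set had 5695 and 6038. At 18 and 24 h, 31 of the 40 (77.5%) lay above their 1 and 3 h values, against 22.1% of all genes. Of 18 glycolysis genes 16 lay above 0, with a median of 0.17. Slc2a1, the basal glucose transporter, gave 103 and 237, 222, 194, 343, 259.5 and 188, highest at 12 h. Of the 41 lists with at least 5 measured genes, 21 had a median within 0.1 of 0 on the log2 scale, among them cytosolic ribosomal proteins, steroid receptors and coregulators, apoptosis and the proteasome.

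Many of the largest single ratios came from genes in no list, and several rest on 1 array. Prss30, an epithelial serine protease with the highest ratio, gave 386 on vehicle and 118, 356, 129.9, 526, 589.5 and 227 after DHT, low at 1 h and 6 h and highest at 12 h and 18 h. Krt81, a hair keratin, gave 963 and 442, 614, 142, 446, 858 and 669.9, with 6 h alone under the floor. Its further probe sets lay under the floor on all 7 arrays. Ada, adenosine deaminase, gave 756 and 611, 1198, 259.8, 609.5, 59.7 and 823, without an order in time. Tspan13, a tetraspanin, gave 547 and 418, 375, 244, 538, 613 and 619.6, lowest at 6 h. Zfp787, Cln8, Strn4, Frg1, Il15ra, Map3k11, P2rx6, Pygm, Pcp2 and Sec62 were the other genes at least 2-fold higher that are not described above. Among all 28 such genes the 12 h array was the highest of 7 for 13 and the 6 h array the lowest for 17. These genes were picked by the same arrays, which raises both counts by construction. Over all 5892 genes, on signals without the floor, the 12 h array was the highest for 984 and the 6 h array the lowest for 749.

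The lower genes divided likewise. Fancc, a subunit of the Fanconi anemia complex for cross-link repair, had the lowest ratio and gave 451 on vehicle and 915, 702, 853, 214, 237 and 569 after DHT, low at 12 and 18 h. Thyn1 gave 613 and 465, 745, 576, 181, 894 and 624, and Pik3r2, a regulatory subunit of PI 3-kinase, gave 606 and 379, 444, 503, 178, 469 and 398. Both were low on the 12 h array alone. A further Fancc probe set lay under the floor on all 7 arrays, and a further Thyn1 probe set lay under it at 6 h and 12 h. Klf13, a zinc finger factor, gave 1160.0 and 890.3, 1174, 425, 182, 1072 and 435, and its other probe set had a log2 ratio of -0.29. Ppp2r2b, a regulatory subunit of protein phosphatase 2A, was the brightest gene called lower, with 1825 at 6 h and 903 at 12 h. Bcl3, a partner of NF-kappa B, gave 116 and 94.0, 85.6, 294, 77.1, 91.1 and 90.3, above the floor on the 6 h array alone. The remaining genes at least 2-fold lower were Prp2, Asb6, Myo1c, Mapkbp1, Acsm2, Rps13, Ido1 and Gfpt2. Of all 18 the 6 h array was the highest of 7 for 8 and the 12 h array the lowest for 13, counts that the choice of these genes raises likewise. Over all 5892 genes, on signals without the floor, these were 895 and 807. At 18 and 24 h, 14 of the 28 higher genes lay above their 1 and 3 h values and 1 below, and 5 of the 18 lower genes lay below and 1 above.

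Genes read by more than 1 probe set give the only internal check of a ratio. Probe sets under the floor on both arrays do not enter it, such as further ones of Csf3r, Krt81, Fancc, Thyn1, Tk1, Nusap1 and Krt10. For 938 genes with a further counted probe set, Pearson's r between the ratios of the brightest and the next brightest was 0.22 and Spearman's rho 0.22 across genes, which are not independent replicates. The sign was the same for 545 of the 938 genes (58.1%). In the cholesterol and respiratory chain lists 2 of 5 genes kept it, in the keratin list 2 of 4, in the smooth muscle list 1 of 4, in the fibrillar matrix list 7 of 12 and in the clock and Wnt lists 1 of 2 each. In the vascular list 6 of 6 genes kept it, in the immediate early list 3 of 3 and in the macrophage list 2 of 2. A kept sign can lie above 0, as it did on 2 of these 6, 1 of these 3 and 1 of these 2 further probe sets. The median of the 2 macrophage ones was 0.22. The SD of a ratio between probe sets of a gene was 0.27 on the log2 scale. Of the 27 genes at least 1.5-fold higher that have another probe set, 20 had the same sign there and 7 also passed 1.5-fold. Of the 19 lower ones, 13 had the same sign and 2 passed. The 2-fold genes whose probe sets differed most were Pcp2 (log2 ratios 1.09 and -0.20), Sec62 (1.15 and 0.03) and Mki67 (1.16 and 0.12), besides Zfp787. Probe sets with the letter r in their name, built under relaxed rules, were 4.70% of those counted and 17.5% of those past 2-fold. The share past 2-fold was 1.78% where the higher signal lay between 300 and 600, and 0.559% above 1200.

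**Figure D5:**
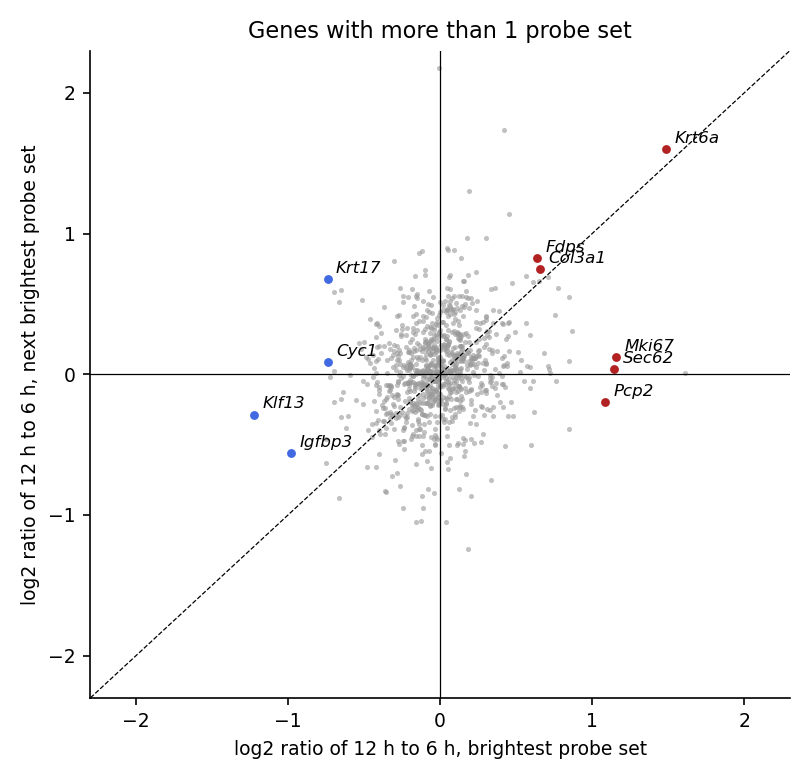
Log2 ratio of 12 h to 6 h of the next brightest probe set against that of the brightest for 938 genes, with a dashed line at equality. The Krt6a pair lies near the line (1.49 and 1.60), while Mki67, Sec62 and Pcp2 lie near 0 on the vertical axis and Krt17 has opposite signs.

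The 2-fold line divides probe sets of like ratio. Just inside it on the higher side were Sprr1a (log2 ratio 1.03), Birc5 (1.04) and Pygm (1.05), with a further Col3a1 probe set at 1.02, and just outside were Dnajc15 (0.96) and Cenpk (0.96) with further probe sets of Urod (0.97) and Gtf3a (0.97). The brightest probe sets of Urod and Gtf3a gave 0.30 and 0.18. On the lower side Bcl3 (-1.01), Ppp2r2b (-1.02) and Sfrp4 (-1.04) lay inside with a further Gstm3 probe set (-1.04), while the brightest Gstm3 probe set gave -0.12. Just outside were Sypl2 (-0.997), Cacna1g (-0.99), Slc4a1ap (-0.98) and Igfbp3 (-0.98). Of 5 neighbouring pairs of DHT arrays, 6 h with 12 h differed least, with 63 probe sets past 2-fold against 107 to 159 for the others and an SD of the log2 ratio of 0.31 against 0.33 to 0.39. Both arrays shared low values that others did not. A beta actin probe set of the family type gave 980.2 and 993 at 6 and 12 h and 2130 to 3978 elsewhere. The other counted beta actin probe set gave 966 and 912, against 2581 to 3526 elsewhere. The maker's own actin control gave 28928 and 27772 within 26020.4 to 39817. Actin and Gapdh controls of the maker with names ending in st were also low on both arrays. The 3 prime one of actin gave 274 and 220, against 334 to 653 elsewhere. The ratio of 3 prime to 5 prime control signal was 0.83 and 0.87 for Gapdh on both arrays, within 0.83 to 0.89 over all. For beta actin it was 1.03 at 6 h, the lowest of the 7, and 1.12 at 12 h, with a highest value of 1.195.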

How the data were processed

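Total RNA from pooled uteri was hybridised to 7 Affymetrix U74Av2 arrays, 1 per group, of which the 12 h and 6 h arrays form the contrast. The authors' deposited table holds linear signal intensity. MAS5 is the tool that the submitters' processing notes name, without a version. The trimmed mean was 500.2 on each array, so the submitters' scaling was kept. Of 12488 probe sets, 66 controls of the maker were left out of counts. Signals under the floor (145.9) were raised to it and log2 was taken. Genes were named through the platform's annotation and GRCm38.p6, and 10833 probe sets named 1 gene.

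With 1 array per side no test was made, and the number of arrays limits the precision. Calls use 2-fold and 1.5-fold. Named genes are the 15 highest and 15 lowest past 2-fold, up to 5 each way per list past 1.5-fold, the 6 largest each way with 18 and 24 h on the side of 12 h, Atm and Gadd45 genes, discordant probe set pairs and genes beside the threshold; others were chosen after their values were seen. Members and the 42 lists (32 pathway, 10 marker) were chosen with earlier results of these data known. Alternatives changed the floor, scaling, filter and probe set rule. The computation of ratios was checked on simulated data, which says nothing of the spread between arrays. Python 3.11.15, pandas 2.3.3 and statsmodels 0.14.6 were used.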

Additional observations from a re-analysis of the deposited data

How the results depend on the processing

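The number of calls depended on the floor. With the floor at the 20th percentile, 240 probe sets were at least 2-fold higher at 12 h, 201 lower, and 828 and 630 passed 1.5-fold. With the 60th percentile these were 13, 6, 95 and 87, and without a floor, on log2(signal + 50) over all probe sets, 107, 82, 583 and 485. Under quantile normalization, loess, centring and both other filters each count stayed within 1.5 times. Quantile normalization moved the split at 1.5-fold from 290 higher and 200 lower to 245 and 231, and loess to 246 and 239. Of 287 list medians under alternatives, 271 kept their sign, 15 of the 16 others belong to lists within 0.1 of 0, and the largest move was 0.30, that of the mitosis list. The mitosis median was 0.25 with the floor at the 60th percentile, and that of the stroma markers turned to -0.11 there. A higher floor pulls dim genes toward 0 by construction. Of 749 values of 107 named genes, 78 moved by more than the SD between probe sets of a gene, 57 of them with the floor at the 60th percentile, and none past 1.5-fold changed sign. No paired analysis was possible because each group has 1 array. No replicate could be left out, and low signals limit the ratios near the floor.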

Other observations

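Genes of the cell cycle and of the secretory pathway outside the lists were also among those at least 1.5-fold higher at 12 h, and were chosen here after their values were seen. Ccnf, a cyclin-like F-box protein, went from 246 at 6 h to 472 at 12 h, Hmgb2, a chromatin protein of dividing cells, from 199.9 to 352, and Pclaf, a partner of the sliding clamp, from 310.2 to 553. Cenpk, of the kinetochore, went from under the floor to 284, Hells, a chromatin remodeller, from under the floor to 241, and Gtse1 from 164 to 288. Of the secretory genes, Fkbp11 went from 292 to 545, Kdelr3, which returns chaperones to the endoplasmic reticulum, from 797 to 1361, and Selenos from 343 to 608.

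Among lower genes outside the lists, Dio2, which activates thyroid hormone, went from 2865 to 1676, the water channel Aqp1 from 1767 to 1051 and Snai1, a repressor of epithelial genes, from 945 to 536. Bcat1, which breaks down branched-chain amino acids, went from 3582 to 2135 and Nbl1, a secreted BMP antagonist, from 3560.1 to 1928.5. These 5 were taken from genes with 18 and 24 h below 1 and 3 h. Of the 215 genes at least 1.5-fold higher 154 were in no list, and of the 155 lower ones 121.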
